A study of Mus musculus with 8 samples.

Results

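Kit, Cd34, Flt3, Cxcr4, Ly6a, Csf3r, Csf2rb, Il7r and Il6ra are the 9 progenitor surface and cytokine receptor genes described here, taken by gene name from the array annotation. They stand among 48795 gene names on the array design of one slide and 34704 on that of the other, and all 9 had at least 1 probe on both. Gene expression was measured on 8 single-colour Agilent arrays, 2 for each of 4 groups. Lin- BM cells were bone marrow cells of female eGFP mice (C57Bl6/J-Tg(UBCGFP)30Scha/J, 6 to 8 weeks old) after magnetic depletion of cells carrying lineage antigens, among them CD5, CD11b, CD45R, 7-4, Gr-1 and Ter119. BM-derived hepatocytes were eGFP-positive cells sorted from collagenase-dissociated livers 1 month or 5 months after such Lin- cells had been injected into hemophilia A mice (male B6;129S4-F8tm1Kaz/J, 6 to 8 weeks old) whose livers had been injured with acetaminophen. By the methods a low-speed spin parted hepatocytes from non-parenchymal cells, and sorted cells were stained for albumin. The recipients kept their own blood and liver cells, the eGFP transgene is driven by a ubiquitin promoter and therefore marks donor blood cells as well as other donor cells, and the strain and age of the source mice of the primary hepatocytes are not given in the sources used here. Cells of 3 mice were pooled for each experiment by the methods.

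These genes encode proteins by which blood stem and progenitor cells are recognised and by which they receive growth signals. Kit and Flt3 are receptor tyrosine kinases, for stem cell factor and for the Flt3 ligand. Cd34 and Ly6a (Sca-1) are surface antigens used to sort progenitors, and both are also found on endothelium. Csf3r, Csf2rb and Il7r bind G-CSF, the ligands of the common beta chain (GM-CSF and IL-3 among them) and IL-7, and signal through Janus kinases and STAT factors. Cxcr4 binds Cxcl12 and holds progenitors in the marrow. Il6ra pairs with gp130 (Il6st) and is the one gene of the set that hepatocytes are well known to use, for the acute phase response to IL-6.

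Lin- BM cells and 1-month hepatocytes shared 1 slide (slide 1), and primary and 5-month hepatocytes shared the other (slide 2), which had another probe design and was scanned on another day. Slide, design and scan day therefore cannot be told apart from group in any comparison across slides. The share of spots well above background ran from 47.7% to 58.6%, and 0 spots were saturated. The 75th percentile of the signal came to 75.5 and 89.5 for the 1-month arrays and lay between 122.2 and 193.4 on the other arrays, so levels are given as log2 signal minus the 75th percentile of the array. Of 9 hepatocyte markers on slide 1, both 1-month arrays had all 9 well above background and both Lin- arrays had 3, where Alb, Apoa1, Apob, Cps1, Fgb and Ttr were not. On slide 2 all 10 hepatocyte markers were well above background on all 4 arrays. The 10 pan-leukocyte markers summed to 321 to 529 times the 75th percentile in Lin- BM cells and 11 to 16.5 at 1 month on slide 1. They summed to 12.3 to 20 in primary hepatocytes and 46.7 to 51.6 at 5 months on slide 2. Marker sums use the brightest probe of each gene on each design, so they cannot be compared across slides. The slide 1 sums fall with the receptors at 1 month. In bulk samples fewer cells of a type and less RNA per cell cannot be told apart.

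The probes read stretches of 60 bases, of which the first 30 are printed because the probe decides what can be compared. Csf2rb, Cd34, Cxcr4, Il7r and Ly6a each had 1 probe of identical sequence in both designs. Places are those of the array annotation on mm9.
Cd34, both slides, chr1:196787392-196787451: ccagagatgagaggattgggtgtattctct
Cxcr4, both slides, chr1:130485079-130485138, reverse strand: aggaagaaactgaacattccagaatgtgtg
Ly6a, both slides, chr15:74825553-74825612, reverse strand: tatgagttatagaagctccaaggtgggagt
Csf2rb, both slides, chr15:78181168-78181227: tcactcacatgatggcagacatagaatgtg
Il7r, both slides, chr15:9435976-9436035, reverse strand: atcaatcaactatgtttggatccagggaat
Kit, Flt3, Csf3r and Il6ra were read by different probes on the 2 slides, so their levels have no link across slides. The array annotation gives no place for the slide 1 probes.
Kit, slide 1: cacgttacatgtgggttttttctgatatgt
Kit, slide 2, chr5:76052394-76052453: gtcaggtacttaaggggccacaccattgag
Il6ra, slide 1: cctgcccacattcctggtagctggaggaag
Il6ra, slide 2, chr3:89674054-89674113, reverse strand: aggaccaagtgcagtaacggtagcccaaac
Of the 28 member probes on the 2 designs, 27 shared no stretch of 20 bases with a probe of another sequence on their design. The exception was the Csf3r probe of slide 2, whose last 30 bases are shared in part with 3 other probes and are printed in capitals for that reason.
Csf3r, slide 2, last 30 of the 60 bases at chr4:125721478-125721537: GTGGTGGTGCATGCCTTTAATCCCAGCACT
These letters resemble the start of the B1 repeat, a short interspersed element with many copies in the mouse genome.

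The comparison within slide 1 asks which of these genes differed between the transplanted cell population and the eGFP-positive hepatocytes recovered 1 month later. Of the 9 receptors, 8 were called lower in 1-month hepatocytes and 0 higher, in a limma fit of 28034 genes with p-values adjusted by Benjamini and Hochberg's method (a call needs an adjusted p below 0.05 together with a log2 change of more than 0.6 in size). Over all genes 26.9% were called lower, 28.6% higher and 55.5% in either direction. The fitted log2 changes of the receptors ran from -9.54 to 0.73 with a median of -4.39, beside a median of 0.05 over all genes. All 9 passed the filter on dim probes, but Cxcr4, Il7r, Csf3r and Flt3 passed only through Lin- BM cells, the group where they were high, so the count over these 4 is partly set by the filter. The study reported from these same arrays that hematopoietic genes were lower in BM-derived hepatocytes, while some, cytokine receptors among them, kept expression. The direction of these receptors is therefore not independent evidence.

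**Figure D1:**
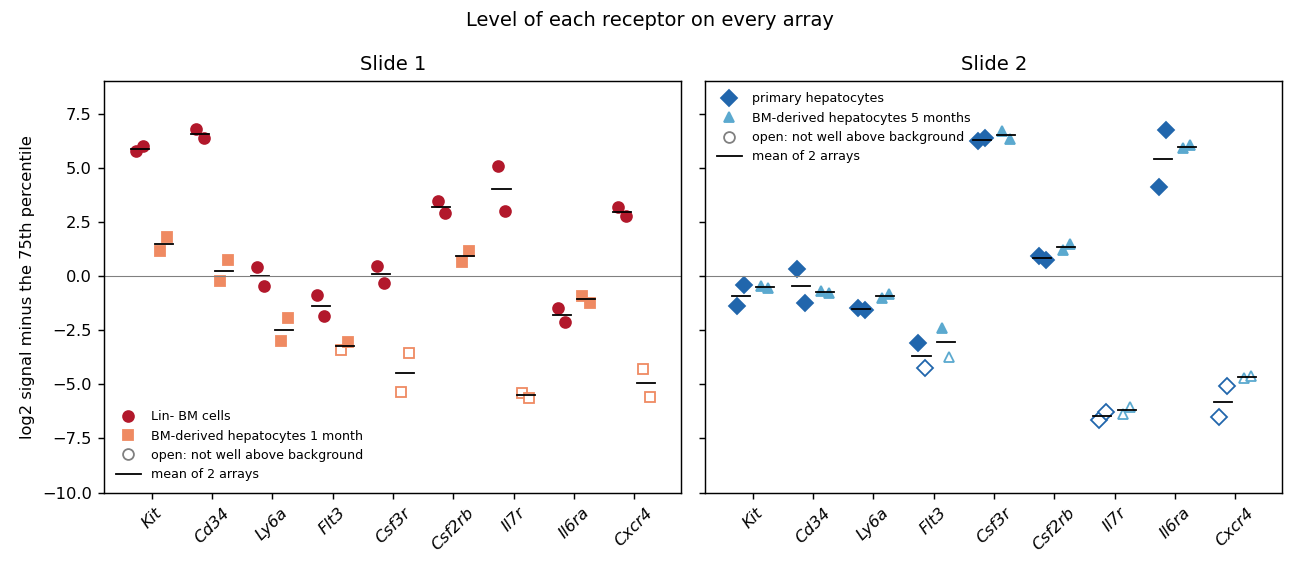
Log2 signal minus the 75th percentile of each array, for the probe used for each receptor (x axis), on slide 1 (left) and slide 2 (right). Each point is 1 array, open points are not well above background, and bars are means of 2 arrays. On slide 1, 8 of the 9 receptors were called lower at 1 month, beside 26.9% of all genes. No receptor was called on slide 2, beside 0.547% of all genes called in either direction. Heights can be compared between groups within a receptor and slide, not between receptors or slides.

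Kit and Cd34, both among the antigens used to define blood progenitors, stood far apart between the groups. The Kit probe gave signals of 9963 and 10687 on the 2 Lin- BM cell arrays and 159 and 303 on the 1-month arrays. On the log2 scale Kit fell by 4.39 (SE 0.34, 2 arrays per group, limma adjusted p = 8.37e-04), to 4.76% of the level in Lin- BM cells. The groups did not overlap, yet both 1-month arrays still read Kit well above background. A second Kit probe with signals of 3439 and 4435 against 50.8 and 80.8 fell by 4.77 (limma adjusted p = 5.39e-04 with each probe as its own row).

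Cd34 gave 20005 and 13936 in Lin- BM cells and 60.9 and 143 at 1 month. It fell by 6.32 (SE 0.42, limma adjusted p = 5.59e-04), to 1.25% of the level in Lin- BM cells, and was the 351st lowest of the 28034 changes. As for Kit, a signal well above background remained on both 1-month arrays. The 10 endothelial markers summed to 6.29 to 6.97 times the 75th percentile in Lin- BM cells and 74.6 to 89.2 at 1 month. At least 9 were well above background on every array. Of the 10, 9 were called higher at 1 month and 1, Pecam1, was called lower. The part of endothelial cells in the remaining Cd34 signal was not tested.

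Ly6a and Flt3 fell less, and their calls were less secure. Ly6a gave 247 and 122 in Lin- BM cells and 8.95 and 22.6 at 1 month, a fall of 2.45 (SE 0.52, limma adjusted p = 0.0143). Both 1-month arrays were below both Lin- arrays. The call was lost without Lin- BM cells replicate 3 (limma adjusted p = 0.0635) and without 1-month replicate 1 (-1.90, limma adjusted p = 0.0558). Flt3, the receptor of early lymphoid and myeloid progenitors, gave 101 and 46.2 in Lin- BM cells and 6.78 and 10.3 at 1 month, where only the second array was well above background. It fell by 1.88 (SE 0.43, limma adjusted p = 0.0177). This call was lost without 1-month replicate 1 (-1.70, limma adjusted p = 0.0813), without 1-month replicate 2 (-2.05, limma adjusted p = 0.0573), and with normexp background correction, which left a log2 change of -0.21.

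In Lin- BM cells the brightest probes of Il7r and Cxcr4 stood well above background, and at 1 month they did not. The Il7r probe gave 6280 and 1332 in Lin- BM cells and 1.73 and 1.75 at 1 month, where neither array was well above background. The lymphoid receptor was at least 333-fold lower at 1 month (limma adjusted p = 7.81e-04). Here and below, "at least" sets the Lin- mean against the lowest signal well above background on each array of the lower group. Such a bound is approximate. That lowest signal was 3.77 on the first 1-month array, where the second Il6ra probe, at 8.75, was not well above background. The 2 Lin- arrays differed 4.34-fold on the percentile scale, and the summed level of 7 T and NK lymphocyte markers lay in the same order, at 155 and 57 times the 75th percentile, against 0.699 and 1.07 at 1 month. The summed level of 8 B lymphocyte markers lay in the opposite order, at 54.5 and 76.7. Cd3g, Gzma and Lck were not above background on either 1-month array, and the part of either cell type in the Il7r level was not tested. A second, dimmer Il7r probe differed by -0.83 (SE 0.75, limma adjusted p = 0.381), with signals of 84.5 and 16.6 against 8.00 and 11.1, where the first 1-month array was not well above background, and its groups overlapped on the percentile scale.
Il7r, second probe, slide 1: cccacagagaaaactacgaccaaaagcaat
The 2 Il7r probes therefore disagree on the size of the difference.

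Cxcr4, the receptor for Cxcl12, gave 1650 and 1144 in Lin- BM cells and 3.74 and 1.79 at 1 month. It was not well above background on either 1-month array and was at least 158-fold lower there (limma adjusted p = 4.96e-04). The second Cxcr4 probe gave 311 and 154 against 1.59 and 4.36 and was likewise not well above background on either 1-month array (limma adjusted p = 0.00165 with each probe as its own row). Both probes separated the groups without overlap.

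The myeloid cytokine receptors Csf3r and Csf2rb differed in how far they fell. Csf3r, the G-CSF receptor, gave 253 and 136 in Lin- BM cells and 1.77 and 7.20 at 1 month, where neither array was well above background. It was at least 16.0-fold lower (limma adjusted p = 0.00500). The 10 neutrophil and granulocyte precursor markers summed to 1242 and 622 times the 75th percentile in Lin- BM cells. At 1 month the sums were 28.1 and 26.1, and Camp, Ngp and S100a8 were not above background. Of the 10 markers, 9 were called lower at 1 month and 1, Cebpe, was called higher. The part of such cells in the Csf3r level was not tested.

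Csf2rb, the common beta chain, gave 2053 and 1253 in Lin- BM cells and 112 and 193 at 1 month. It fell by 2.29 (SE 0.36, limma adjusted p = 0.00605), to 20.5% of the level in Lin- BM cells, and remained well above background on both 1-month arrays. A second Csf2rb probe, with 63.5 and 52.1 against 50.2 and 45.3, differed in the other direction by 0.89 (SE 0.29, limma adjusted p = 0.0518) and did not pass the test, and another was not above background on any array of the slide. With the mean of its probes in place of the brightest one, Csf2rb differed by -0.70 and was not called. Csf2rb2, a near-identical copy of the gene that can share its signal, fell by 1.69 (SE 0.27, limma adjusted p = 0.00624).
Csf2rb, second probe, slide 1: cctcaccttgctcctgatccttcgctttgg
The shared probe and this one do not give the same picture of the gene.

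Il6ra was the one receptor that was not called lower. Its brighter probe gave 65.3 and 38.9 in Lin- BM cells and 38.7 and 36.2 at 1 month, all well above background. After the percentile shift the 1-month arrays were higher by 0.73 (SE 0.34, 95% interval -0.15 to 1.61, limma adjusted p = 0.126), which did not pass the test. The second probe, with 27.7 and 10.6 against 8.75 and 5.30, was not well above background on either 1-month array. It differed by -0.17 (SE 0.56, 95% interval -1.62 to 1.27, limma adjusted p = 0.807). The interval of the brighter probe includes 0 and excludes a fall beyond 0.15 on the log2 scale. The interval of the second probe does not exclude such a fall, and both probes were dim.

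**Figure D2:**
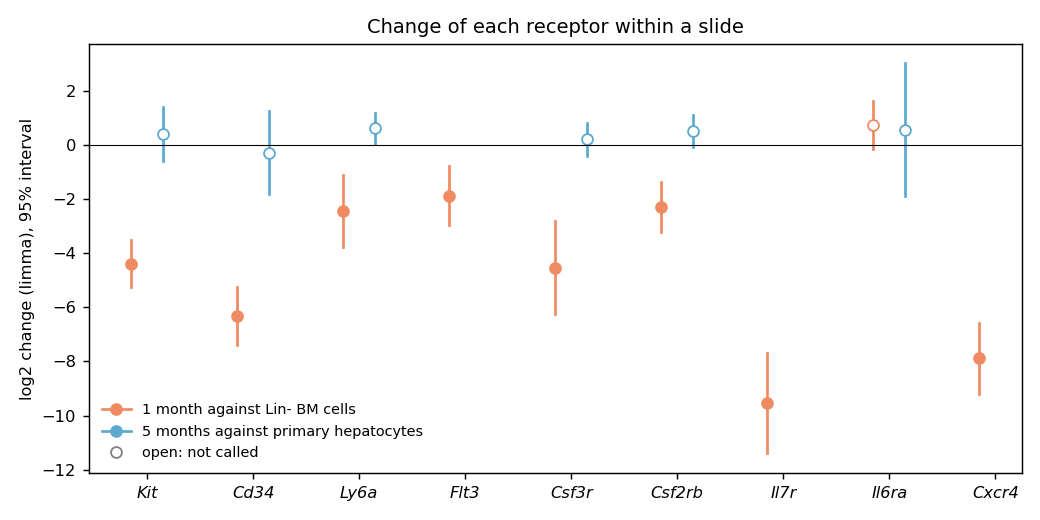
Log2 change of each receptor (x axis) with its 95% interval from limma, for 1 month against Lin- BM cells (slide 1) and 5 months against primary hepatocytes (slide 2). Filled points were called. The slide 1 changes run from -9.54 for Il7r to 0.73 for Il6ra, while the 6 receptors tested on slide 2 lie between -0.29 and 0.60. For Il7r, Cxcr4 and Csf3r on slide 1 the fitted value rests on 1-month signals that were not above background.

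The comparison within slide 2 asks whether 5-month hepatocytes differed from primary hepatocytes in these receptors. Of the 6 that passed the filter, 0 were called in either direction, by limma with Benjamini-Hochberg adjustment, where 0.547% of all 19909 genes were called (0.362% higher and 0.186% lower). At an unadjusted p under 0.05 there was 1 receptor, Ly6a, beside 2818 of all genes, and the methods' t-test without adjustment also called Ly6a alone. The changes ran from -0.29 to 0.60 with a median of 0.45, beside 0.04 over all genes. The 3 that did not pass were Flt3, Cxcr4 and Il7r.

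Kit gave signals of 54.8 and 94.0 in primary hepatocytes and 89.9 and 70.2 at 5 months, all well above background. Its log2 difference was 0.39 (SE 0.38, 95% interval -0.61 to 1.40). The brighter Cd34 probe gave 179 and 53.6 in primary hepatocytes and 75.4 and 60.8 at 5 months, a difference of -0.29 with an interval from -1.81 to 1.24. By these Kit and Cd34 probes the 5-month arrays lay within the range of the primary hepatocyte arrays on the percentile scale. A second Cd34 probe gave 3.42 and 1.81 in primary hepatocytes and 3.53 and 1.77 at 5 months. It was not well above background on any array of slide 2.

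Ly6a was higher on both 5-month arrays, with 61.6 and 58.4 against 51.8 and 42.3. The log2 difference was 0.60 (SE 0.21, 95% interval 0.04 to 1.16) and did not pass after adjustment (limma adjusted p = 0.332). The brighter Csf2rb probe was likewise higher on both 5-month arrays, at 286 and 285 against 271 and 210, by 0.51 (SE 0.22, limma adjusted p = 0.416). A second Csf2rb probe gave 42.2 and 41.3 at 5 months against 40.8 and 49.6 in primary hepatocytes. It differed by 0.14 (SE 0.27, limma adjusted p = 0.848 with each probe as its own row). The groups overlapped for that probe on the percentile scale. None of these differences was called. The pan-leukocyte sum was 46.7 to 51.6 at 5 months and 12.3 to 20 in primary hepatocytes. The Kupffer cell sum was 128 to 129 against 33.5 to 71.8, with 9 of 10 Kupffer markers above background on both arrays of each group. The part of such cells in the Ly6a and Csf2rb values was not tested.

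Il6ra was bright in both groups but uneven among primary hepatocytes, with 2438 and 13450 there and 7431 and 6772 at 5 months. The log2 difference was 0.56 (SE 0.91, limma adjusted p = 0.831), and the 5-month arrays lay between the 2 primary arrays. Without primary hepatocytes replicate 4, which left 1 primary array, the log2 difference became 1.87, so its size depends on that array. Csf3r on this slide gave 10773 and 10330 in primary hepatocytes and 12587 and 8356 at 5 months, a difference of 0.21 (SE 0.23, limma adjusted p = 0.738), by the probe with the repeat-like stretch printed above. On this design 7 other probes hold the last 15 bases of that probe, 3 on the same strand and 4 on the opposite one. Of these, 5 were well above background on all 4 arrays, and the mean signals of the 7 ran from 2.29 to 112837 with a median of 182. The part of the repeat-like stretch in the Csf3r signal was not tested, so that signal cannot be read as the receptor alone.

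Cxcr4 gave between 1.55 and 4.79 on the 4 arrays of slide 2 and Il7r between 1.44 and 1.63, and neither was well above background on any. Of 3 Flt3 probes, 2 were not above background on any array, and the other was above it on 1 array of each group, with 16.7 and 6.60 in primary hepatocytes and 23.5 and 7.88 at 5 months. For these 3 receptors no difference between the hepatocyte groups was detectable at this signal.

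Across slides, the 5 receptors with a probe of identical sequence were compared in 1 fit over all 8 arrays, on 9307 genes with the 75th percentile taken over the shared probes. All 5 were called lower in primary hepatocytes than in Lin- BM cells, beside 38.0% of genes called lower, 29.2% called higher and 67.3% called in either direction. In 5-month hepatocytes 4 of the 5 were called lower than in Lin- BM cells, beside 37.7% lower, 29.3% higher and 67.0% in either direction, and Ly6a was not. Cxcr4 and Il7r passed the filter here only through Lin- BM cells, the group where they were high, so their calls are partly set by the filter. With the stricter filter 3 receptors were left, of which 3 were called in primary hepatocytes and 2 at 5 months. Over all genes that filter gave 2703 and 2695 of 8246 called lower. These comparisons share the Lin- BM cell arrays with each other and with the 1-month comparison.

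Cd34 fell by 7.20 in primary hepatocytes (SE 0.57, limma adjusted p = 6.68e-05) and, at 5 months, fell by 7.44 (SE 0.57, limma adjusted p = 6.22e-05). Its mean level on the shared-probe scale was 5.06 in Lin- BM cells, -1.23 at 1 month, -2.14 in primary hepatocytes and -2.39 at 5 months. None of the differences among the last 3 groups was called. Csf2rb fell by 2.54 (SE 0.33) in primary hepatocytes and, at 5 months, fell by 1.99 (SE 0.33), and its levels were 1.68, -0.57, -0.86 and -0.31 in the same order of groups.

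Il7r was at least 363-fold lower in primary hepatocytes and at least 293-fold lower at 5 months than in Lin- BM cells, and Cxcr4 at least 173-fold and at least 139-fold lower. Both were not above background on any of the 6 hepatocyte arrays, so their levels among the hepatocyte groups have no order. Ly6a fell by 1.67 in primary hepatocytes (SE 0.47, limma adjusted p = 0.0181), a call that was lost without Lin- BM cells replicate 3 (-1.15, limma adjusted p = 0.0924) or without either primary array (-1.72 and -1.63). At 5 months Ly6a differed from Lin- BM cells by -1.03 (SE 0.47, limma adjusted p = 0.0938), which passed only without Lin- BM cells replicate 4 (-1.55, limma adjusted p = 0.0400).

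**Figure D3:**
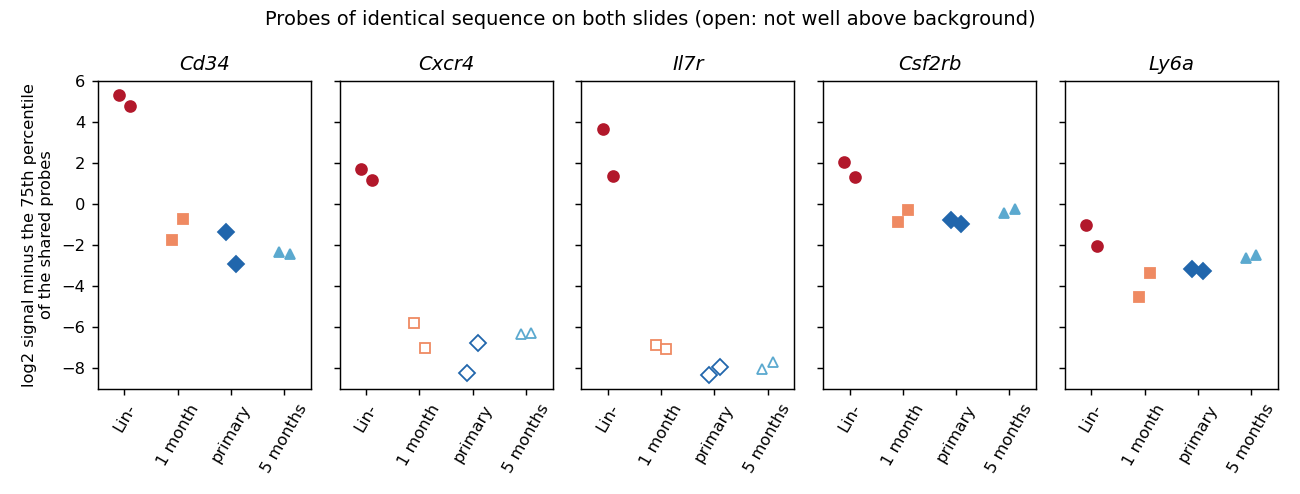
Log2 signal minus the 75th percentile of the shared probes (y axis) for the 5 receptors with a probe of identical sequence on both slides, by group (x axis). Each point is 1 array and open points are not well above background. Lin- BM cells and 1 month lie on slide 1, primary hepatocytes and 5 months on slide 2. All 6 hepatocyte arrays are open for Cxcr4 and Il7r, and for Ly6a the 5-month arrays, at -2.63 and -2.49, come nearest to the Lin- arrays at -1.01 and -2.05.

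Among the hepatocyte groups 0 of the 5 receptors were called in 1 month against primary hepatocytes (16.8% of genes called, 11.7% higher and 5.15% lower) and 0 in 5 months against 1 month (17.2% called, 5.86% higher and 11.3% lower), by limma with Benjamini-Hochberg adjustment. At an unadjusted p under 0.05 there were 0 and 1 receptors, beside 3012 and 3237 of 9307 genes. The 1 receptor was Ly6a, which was higher at 5 months than at 1 month by 1.38 (SE 0.47, 95% interval 0.25 to 2.51, limma adjusted p = 0.0906). With the authors' processed values the same difference was 1.61 and was called (limma adjusted p = 0.0496). Slide cannot be told apart from time here. Cd34 differed by 0.91 (95% interval -0.46 to 2.28) between 1 month and primary hepatocytes, and Csf2rb by 0.29 (-0.51 to 1.09).

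The ligands of these receptors were mostly dim. Of 10 ligand genes, 6 passed the filter on slide 1, with 4 called lower at 1 month, 1 higher and 1 not called, and a median log2 change of -1.70. Cxcl12, the ligand of Cxcr4, was bright throughout slide 1, with 1963 and 4027 in Lin- BM cells and 3617 and 4375 at 1 month. It rose by 1.66 (SE 0.45, limma adjusted p = 0.0296), although the signals overlap before the percentile shift and the call was lost without Lin- BM cells replicate 3 (1.08) and without either 1-month array (1.67 and 1.65). Flt3l fell by 1.82 (SE 0.29, limma adjusted p = 0.00599) from 2527 and 1775 to 236 and 304. Il6 fell by 3.47 (SE 0.62, limma adjusted p = 0.00891) from 517 and 142 in Lin- BM cells, an 11.1-fold difference, but with normexp background correction the difference was -1.42 and the call was lost (limma adjusted p = 0.0800). Csf2 was at least 3.71-fold lower at 1 month and Il7 at least 1.39-fold lower. Both were not above background at 1 month, and their changes turned to 0.13 and 0.52 with normexp background correction.

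Kitl, the ligand of Kit, did not pass the test, with 36.8 and 84.3 in Lin- BM cells and 12.7 and 31.3 at 1 month, a log2 difference of -0.32 (SE 0.59, limma adjusted p = 0.664). Csf3, Il3 and Il5 were not above background on any of the 8 arrays, and Tslp was above it on 1 Lin- array. On slide 2 the 3 ligands that passed were Cxcl12, Flt3l and Kitl, and 0 were called, with differences of 0.29, 0.15 and -0.04 between 5-month and primary hepatocytes.

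Of 8 partner receptor chains, 7 passed on slide 1, with 5 lower, 1 higher and 1 not called, and a median of -1.69. Crlf2, the Il7r partner for TSLP, fell by 3.10 (SE 0.32, limma adjusted p = 0.00176) from 13125 and 8027 to 474 and 604. Il2rg, the other partner of Il7r, was at least 8.25-fold lower (limma adjusted p = 0.0163), but the fitted change of -3.66 shrank to -0.67 with normexp background correction, where the call was lost (limma adjusted p = 0.137). The call was also lost without Lin- BM cells replicate 3 (-2.95) and without 1-month replicate 1 (-2.69). Csf2ra and Il3ra, which pair with Csf2rb, fell by 3.68 (SE 0.49, limma adjusted p = 0.00377) and by 1.28 (SE 0.31, limma adjusted p = 0.0208). The Il3ra call was lost without Lin- BM cells replicate 3 (-1.09) and without 1-month replicate 1 (-1.47) or replicate 2 (-1.09).

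Il6st, the gp130 chain that Il6ra needs, rose by 1.26 (SE 0.38, limma adjusted p = 0.0423), from 862 and 433 in Lin- BM cells to 656 and 652 at 1 month. The signals overlap and only the percentile shift separates them. The call was lost with quantile normalization (1.24), with normexp (0.83), without Lin- BM cells replicate 4 (0.82) and without 1-month replicate 1 (1.13) or replicate 2 (1.38). Ackr3, the second Cxcl12 receptor, did not pass the test (0.24, SE 0.94), and Il5ra was not above background on any array of slide 1.

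On slide 2, 5 partner chains passed and 0 were called, with a median of 0.15. Crlf2 was higher on both 5-month arrays, at 1739 and 1437 against 555 and 510, by 1.82 (SE 0.20, limma adjusted p = 0.0666). Il3ra was lower on both, at 345 and 301 against 787 and 794, by a log2 difference of -1.05 (SE 0.20, limma adjusted p = 0.160). Neither passed the threshold after adjustment. Crlf2 passed it with normexp background correction (1.68, limma adjusted p = 0.0223), where 158 of 19909 genes were called against 109 in the main fit. The difference was 1.80 without primary hepatocytes replicate 2 and 1.84 without replicate 4, each of which left 1 primary array.

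Among 19 genes of signalling downstream of these receptors, 18 passed on slide 1, with 5 lower, 1 higher and 12 not called, and a median of -0.65. Ptpn6, the phosphatase that restrains Kit and cytokine receptor signals, fell by 2.80 (SE 0.28). Stat5a fell by 2.38 (SE 0.52), a call lost without 1-month replicate 2 (-2.01), and the kinase Jak2 by 2.19 (SE 0.30). The ubiquitin ligase Cbl was called higher by 1.92 on dim signals of 19.0 and 31.4 against 17.1 and 12.2, but turned to -0.25 with normexp, to -0.95 with the mean of its probes and to -3.77 with the shared probe, so its direction is not settled. On slide 2 the list had 1 call among 17 genes, Socs3, the feedback inhibitor of IL-6 and G-CSF signals, which rose by 2.37 (SE 0.21, limma adjusted p = 0.0444) from 654 and 487 in primary hepatocytes to 2688 and 2254 at 5 months. The Socs3 call was lost without a filter on dim probes (limma adjusted p = 0.115) and in the shared-probe fit (2.41, limma adjusted p = 0.568). It was also lost with the methods' t-test after Benjamini-Hochberg (t-test adjusted p = 0.323), which called 0 of 19909 genes. Without either 5-month array, which left 1 such array, the call was lost and the difference stayed 2.37. Socs1 and Cish, which act in the same way on other cytokine signals, differed by 1.64 (SE 0.32, limma adjusted p = 0.156) and 1.61 (SE 0.39, limma adjusted p = 0.221), and Jak3 by 1.09 (SE 0.32, limma adjusted p = 0.277).

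Other cytokine and chemokine receptors of blood cells gave 17 lower, 0 higher and 4 not called among the 21 of 23 that passed on slide 1, with a median of -3.38. Cxcr3, a chemokine receptor of T cells, fell by 5.83 (SE 0.45) from 2658 and 1324 to 10.5 and 20.9. Il10ra fell by 3.76 (SE 0.34) and Ccr9 by 3.46 (SE 0.30). On slide 2, 14 passed and 0 were called. The 4 with the largest differences there were Csf1r (1.01), Il10ra (0.90), Il2rb (0.82) and Il17ra (-0.71).

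Of 20 other stem and progenitor surface antigens, 19 were on the slide 1 design and 18 passed, with 9 lower, 3 higher and 6 not called. Those that fell included Cd27, Cd44, Cd48, Itga2b, Itga4, Slamf1, Spn and Thy1. The 3 that rose were Tek (2.33, SE 0.36), Esam (2.14, SE 0.31) and Fcgr2b, which are also expressed by liver endothelium. Tek and Fcgr2b are themselves among the 10 endothelial markers summed above, so that sum is no separate measure beside them. Vcam1 and Fcgr3 did not pass the test, with log2 differences of -2.63 (SE 0.91) and -2.10 (SE 0.98). On slide 2, 14 passed and 0 were called, with the largest differences at Thy1 (1.60), Cd48 (0.91), Cd44 (0.76) and Itga4 (0.74).

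The 6 genes of the antigens used for depletion all passed on slide 1, and 5 were called lower at 1 month. Ptprc, whose product in one form is CD45R, fell by 7.42 (SE 0.83) from 13727 and 5544 to 9.86 and 52.9. Cd5 fell by 4.4 (SE 0.65) from 1953 and 497. The mRNA of Cd5 was thus well above background in the depleted Lin- fraction. Ly6g did not pass the test on slide 1 (1.41, SE 1.28).

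Ly6a lies in a family of small surface proteins, of which 11 of 13 others passed on slide 1, with 4 lower, 1 higher and 6 not called. Ly6c2 fell by 7.02 (SE 0.47), Ly6d, found on B cell precursors, by 5.99 (SE 0.48), and Ly6e by 2.45 (SE 0.26). Gpihbp1, the lipoprotein lipase anchor of endothelium, rose by 4.92 (SE 0.28) from 169 and 173 to 1898 and 2799. On slide 2, 9 passed and 0 were called, with Ly6d at 1.77 (SE 0.51, limma adjusted p = 0.272), Ly6g at -0.98, Lypd2 at -0.66 and Ly6c1 at 0.66.

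Of 17 receptors that hepatocytes are known to carry, all passed on slide 1, with 12 higher, 2 lower and 3 not called and a median of 2.60. The subunits of the asialoglycoprotein receptor Asgr1 and Asgr2 rose by 10.51 (SE 0.32) and 10.05 (SE 0.29), the growth hormone receptor Ghr by 7.87 (SE 0.33) and Egfr by 7.53 (SE 0.48). Asgr1 gave 37.0 and 23.0 in Lin- BM cells and 19126 and 18982 at 1 month. The 2 that fell were Igf1r and Ifngr1, and the latter also stands in the list of blood cell receptors. On slide 2 all 17 passed and 0 were called, with the largest differences at Prlr (1.09), Lepr (-1.02), Met (-0.71) and Egfr (-0.60).

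**Figure D4:**
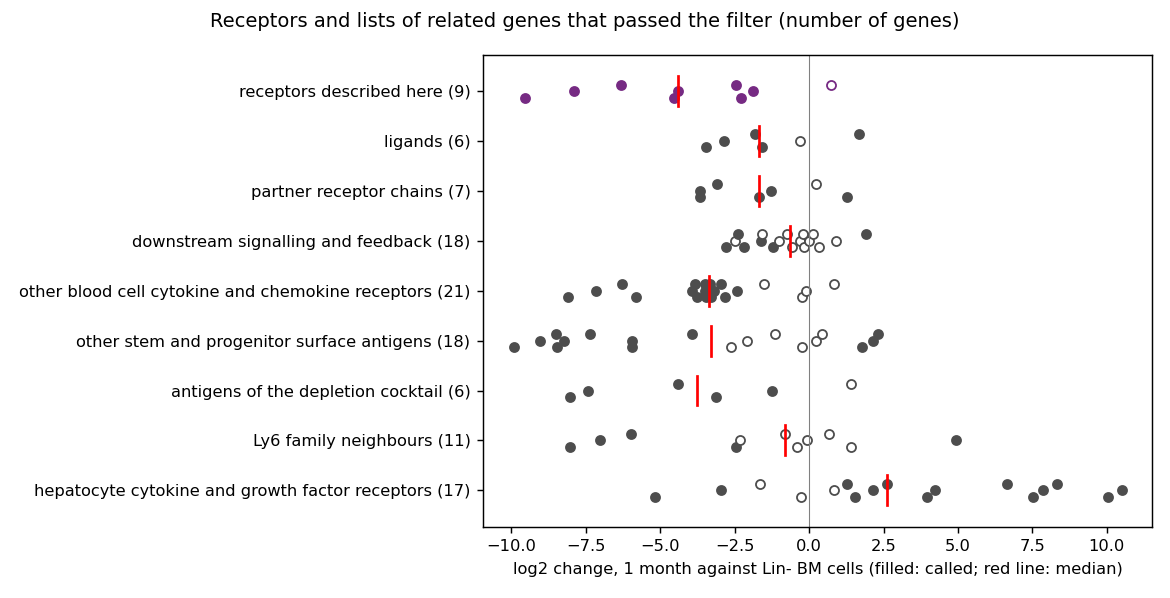
Log2 change in 1-month hepatocytes against Lin- BM cells (x axis) for the receptors described here and for 8 lists of related genes (y axis, with the number of genes that passed the filter). Each point is 1 gene, filled where called, and the red line is the median of the list. The receptors have a median of -4.39, the other blood cell receptors -3.38 and the hepatocyte receptors 2.60.

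The genes whose profile over the 8 arrays was most like that of each receptor were sought among 8617 named genes of the shared-probe fit. For Cd34 these were Elovl7 and Tab1 (Pearson r = 0.998 and 0.996), for Cxcr4 Ankrd13b and Slc39a6 (0.997 and 0.995), for Il7r Tespa1 and Scin (1.000 and 0.999), for Csf2rb Prkx and Batf (0.992 and 0.991), and for Ly6a Stoml1 and Runx3 (0.968 and 0.967). The 8 arrays fall into 2 Lin- arrays that are high and 6 hepatocyte arrays that are low, and these values describe that shared step and its scatter. For Il7r and its nearest genes the scatter includes the higher level of Lin- BM cells replicate 3, where Tespa1 was 1.27 against -0.38 in replicate 4.

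Promoters of 7 of the receptors, 250 bases before the start in RefSeq (GRCm38.p6), were searched for 6 motifs on both strands. Of the 9 receptors, 8 had been called lower at 1 month, and Il6ra, whose promoter was also searched, had not. The ETS motif GAGGAAG was found for Kit and Csf3r (10.6% of 32851 promoters hold it), the GATA motif AGATAA for Il6ra (10%) and the STAT motif TTCNNNGAA for Il7r (7.0%). The RUNX motif TGTGGT, the MYB motif CAACTG and the CEBP motif TTGCGNAA were found for 0 of the 7 (14.0%, 11.1% and 0.7% of all). The windows around these matches have the motif in capitals.
Kit, chr5:75574744-75574790, forward strand: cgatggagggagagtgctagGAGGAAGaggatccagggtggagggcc
Csf3r, chr4:126024553-126024599, forward strand: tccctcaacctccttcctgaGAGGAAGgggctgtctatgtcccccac
Il7r, chr15:9529990-9530038, reverse strand: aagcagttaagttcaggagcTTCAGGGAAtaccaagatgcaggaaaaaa
A match describes letters and no binding was measured.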

How the data were processed

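The deposited files give, for each of the 8 arrays, the background-subtracted signal of every spot as intensities from Agilent Feature Extraction 11.5.1.1. The series table holds the authors' processed log2 values, which differ from the log2 intensities by 1 constant per array within 0.02 for 100.0% of the probes with 1 spot, that is, by the shift to the 75th percentile. Direction and scale were thereby known. It was used as an alternative only.

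Each array was shifted on the log2 scale by its 75th percentile, taken without control probes. Spots marked as outliers (6 to 152 per array) were left out, spots of identical sequence were averaged, a probe was kept where both arrays of some group read it well above background, and the brightest probe stood for a gene. Groups were compared with limma 3.58.1 in R 4.3.3, with Benjamini-Hochberg adjustment over all genes. Across slides, 13991 shared sequences (10939 named by accession, 1568 by symbol or synonym, 1484 keeping the array name) entered 1 fit over 8 arrays. The methods' Student's t-test was an alternative. Other alternatives were normexp (offset 50), quantile normalization, other filters, all probes of a gene, and each array left out. Fits were tested on simulated data. Precision is limited by 2 arrays per group, and p-values measure the spread between these arrays.

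The receptors and lists were chosen with earlier results of these data known. Every receptor, ligand and partner chain is named, and of each other list up to 4 genes per comparison within a slide, those with the largest change among the genes that all 4 arrays read well above background. For the depletion antigens, the surface antigens and the hepatocyte receptors further genes are named where a count lists its genes. Some genes of these lists are not reported here. B lymphocyte, erythroid, mast cell and stellate cell markers were also summed: in Lin- BM cells they came to 54.5 to 76.7, 234 to 289, 68.4 to 92.8 and 24.1 to 177 times the 75th percentile, and at 1 month to 1.89 to 1.94, 31.4 to 47.8, 0.530 to 0.647 and 23.5 to 32.6.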

Additional observations from a re-analysis of the deposited data

How the results depend on the processing

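Over the receptors' 35 changes, 570 recomputed values gave 542 with the same call, 20 that lost it, 8 that gained it and 0 called changes of opposite sign. Some of these values could hardly differ, so the tally is no measure of robustness. Within a slide the stricter filter kept the same genes, and the authors' processed values are the intensities shifted by 1 constant per array. Across slides, leaving out an array of neither compared group changed only the estimate of the spread. The 8 receptors called lower at 1 month became 3 with the methods' t-test after Benjamini-Hochberg and 5 of 5 in the shared-probe fit over 8 arrays, and 6 to 8 without 1 array. The number called higher stayed 0. In primary hepatocytes against Lin- BM cells 5 became 3 of 3 with the stricter filter, 3 with the t-test after Benjamini-Hochberg, and 4 to 5 without 1 array, and at 5 months against Lin- BM cells 4 became 2 of 3 with the stricter filter, 3 with the t-test after Benjamini-Hochberg and 4 to 5 without 1 array. The counts of 0 became 1 with the unadjusted t-test for 5 months against primary hepatocytes, 1 month against primary hepatocytes and 5 months against 1 month, 1 with the authors' processed values for 5 months against 1 month, and, without 1 array, 0 to 1 for 5 months against primary hepatocytes (Il6ra), 0 to 1 for 1 month against primary hepatocytes (Il7r, on signals below background) and 0 for 5 months against 1 month. Of the named genes, Cbl turned to -0.25 with normexp, -0.95 with the mean of its probes and -3.77 in the shared-probe fit, Fcgr3 to 2.17 in the shared-probe fit, Csf2 to 0.13 and Il7 to 0.52 with normexp, and Vcam1 at 5 months ran from -1.43 to 2.13 without 1 array. The cause was not tested. The fewer genes of the stricter filter and of the shared probes set their counts. Over all genes, the t-test after Benjamini-Hochberg called 1745 of 28034 lower at 1 month against Lin- BM cells, against 7530 in the main fit. It called 1243 of 9307 lower in primary hepatocytes and 1668 at 5 months against Lin- BM cells, against 3541 and 3511. The stricter filter called 2703 and 2695 of 8246 lower there, and the shared-probe fit called 2963 of 9307 lower at 1 month. Over all genes, 5 months against primary hepatocytes gave 109 calls, from 0 without either 5-month array to 1643 without primary hepatocytes replicate 4, 38 without a filter, 158 with normexp, and 1362 with the unadjusted t-test but 0 after adjustment. The unadjusted t-test called 1791 of 9307 genes in 1 month against primary hepatocytes and 2298 in 5 months against 1 month. Slide as a block could not be estimated. No paired analysis was possible because the groups compared share fewer than 2 numbers. Signals near background, most of them at 1 month, limit Flt3, Csf3r, Cxcr4 and Il7r to bounds or weak calls.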
